A study of Mus musculus with 6 samples.

Results

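The cell cycle and DNA replication genes described here are 56 genes chosen by name, of which 52 were represented by a probe set annotated to a single symbol, among 8511 genes so represented in all. They were measured in sorted CD4+CD8+ double-positive thymocytes, immature alpha-beta lineage cells that carry both coreceptors, from C57BL/6 female mice aged 6 weeks. The transgenic group carried a Sox13 transgene, which forces expression of an HMG-box transcription factor of the gamma-delta T cell lineage, and the wild-type group consisted of littermates. Which promoter drives the transgene is not given in the sources used here. Each genotype was hybridised to 3 arrays. Experiment 1 used the Mu11K pair (arrays A and B, counted as 1 sample), experiment 2 used U74A, and each compared 1 transgenic with 1 wild-type sample, sorted from thymocytes pooled from at least 2 mice. Pole, Bub1b, Ccnb1 and Cdc25b had no single-symbol probe set and are not described. Tyms was measured in experiment 1 alone, and Birc5, Mad2l1, Cdc20 and Kif11 in experiment 2 alone.

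Cells commit to division when cyclin-dependent kinases inactivate Rb-family proteins and release E2F factors, which switch on the genes of DNA synthesis. The Mcm2 to Mcm7 helicase is loaded onto origins, polymerases and their clamp copy the DNA, and a later wave of genes then builds the mitotic spindle and condenses the chromosomes. In the thymus, a burst of division accompanies the passage from the double-negative to the double-positive stage, after which most double-positive cells are small and resting.

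The promoters of several of these genes carry the sequence elements through which such waves are timed, and those of the members that the results below turn on are shown. RefSeq promoter windows (GRCm38.p6), running from 250 bases before to 50 after the transcript start, were found for 47 of the 56 genes, in 54 windows. The letters searched on both strands were the E2F motifs TTTCCCGC and TTTGGCGC, whose matches can overlap, the cell cycle homology region (CHR) TTTGAA, the CCAAT box CCAAT and the Sox core AACAAT. The last 120 bases before the start are printed 5′ to 3′ on the gene's strand, with E2F, CHR and CCAAT matches in capitals. The annotated genes of Mki67, Mcm5 and Top2a begin upstream of the transcript start used, so part of their stretches lies within the gene. Mcm6 (chr1:128359706-128359825, minus strand) is given for its E2F matches, Mcm5 (chr8:75109389-75109508, plus) and Plk1 (chr7:122159315-122159434, plus) as genes with higher levels in both experiments, Mki67 (chr7:135716380-135716499, minus) and Top2a (chr11:99024190-99024309, minus) for the largest differences, and Cdk1 (chr10:69352913-69353032, minus) and Ccnb2 (chr9:70421555-70421674, minus) as kinase and cyclin of mitotic entry.
Mcm6: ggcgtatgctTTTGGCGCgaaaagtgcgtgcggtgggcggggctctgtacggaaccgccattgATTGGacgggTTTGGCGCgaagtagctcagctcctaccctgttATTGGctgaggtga
Mcm5: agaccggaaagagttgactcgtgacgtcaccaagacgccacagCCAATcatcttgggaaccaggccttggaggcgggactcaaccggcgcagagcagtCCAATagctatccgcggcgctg
Plk1: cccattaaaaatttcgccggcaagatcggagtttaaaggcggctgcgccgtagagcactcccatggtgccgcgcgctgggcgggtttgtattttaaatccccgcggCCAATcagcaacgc
Mki67: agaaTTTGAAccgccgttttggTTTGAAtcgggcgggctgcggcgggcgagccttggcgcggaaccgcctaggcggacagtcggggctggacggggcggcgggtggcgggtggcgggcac
Top2a: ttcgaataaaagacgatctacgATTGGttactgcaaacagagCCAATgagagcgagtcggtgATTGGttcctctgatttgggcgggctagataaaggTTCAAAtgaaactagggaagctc
Cdk1: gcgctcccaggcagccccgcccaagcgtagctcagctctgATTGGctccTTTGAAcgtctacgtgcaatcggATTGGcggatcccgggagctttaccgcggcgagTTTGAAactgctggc
Ccnb2: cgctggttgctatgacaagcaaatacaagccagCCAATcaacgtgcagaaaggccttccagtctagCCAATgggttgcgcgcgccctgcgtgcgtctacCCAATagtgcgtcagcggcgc

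The Mcm6 stretch held 2 matches to an E2F motif beside CCAAT boxes, that of Mki67 held 2 CHR matches, and those of Top2a and Cdk1 held both CCAAT boxes and CHR matches. Over the full windows, an E2F motif was found in 8 of the 54 member promoters, or 14.8%, against 1.56% of the 32851 promoters of the table. A CCAAT box was found in 32 (59.3% against 37.4%) and a CHR in 14 (25.9% against 17.9%). The Sox core was found in 1 (1.85% against 10.7%), that of Top2a. These are matches of letters, and no binding was measured.

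Intensities are given after scaling each array to a trimmed mean of 500, with values under a floor of 100 set to the floor, and folds that involve a floored value are written as "at least". The transgene was read by its probe sets, with Sox13 at 5951 against a wild-type value under the floor in experiment 1 and at 3832 against 599.6 in experiment 2. Transcripts of the sort markers were present in every sample, with Cd4 between 5040 and 7877 and Cd8a between 15638 and 17759. In experiment 1, 48 members had a probe set and 47 were above the floor in at least 1 sample, and in experiment 2 these numbers were 51 and 48. Cyclin D2 (Ccnd2) was not above the floor in either experiment, and Mcm6 and Cdkn1b were not above it in experiment 2. Only members above the floor have a log2 ratio, so the counts that follow cover those alone. The arrays are few, and their number limits the precision of every value.

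In experiment 2 the cell cycle genes were higher in the transgenic sample almost throughout, by small amounts, whereas in experiment 1 they spread widely in both directions. In experiment 2, 44 of 48 members were higher, or 91.7%, against 45.4% of all 5377 genes measured. Their log2 ratios ran from -0.21 for Rpa2 to 0.85 for Prim2, with a median of 0.36 (1.28-fold) against -0.03 over all genes. None was 2-fold higher or lower, where 0.855% and 0.446% of all genes were. In experiment 1, 17 of 47 members were higher (36.2%), against 45.6% of all 3927 genes. Their log2 ratios ran from -2.49 for Mki67 to 1.04 for E2f1, with a median of -0.15 against -0.07 over all genes, and when the medians of the arrays were equalised these became 0.03 and 0.09, with 24 of 47 members higher. With trimmed means nearly equal, the median deposited intensity of Mu11K A was 646.6 (transgenic) against 815.0, that of Mu11K B 396.3 against 544.5, and that of U74A 65.4 against 68.0. There 8 members, or 17.0%, were 2-fold lower, against 11.7% of all genes, and 1 was 2-fold higher (2.13%), against 5.25%. The latter, E2f1, and Pola1 among the former had a probe set at the floor in 1 sample and were no longer 2-fold apart with a floor of 200. In sorted populations, fewer dividing cells and less RNA per cell cannot be told apart.

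**Figure D1:**
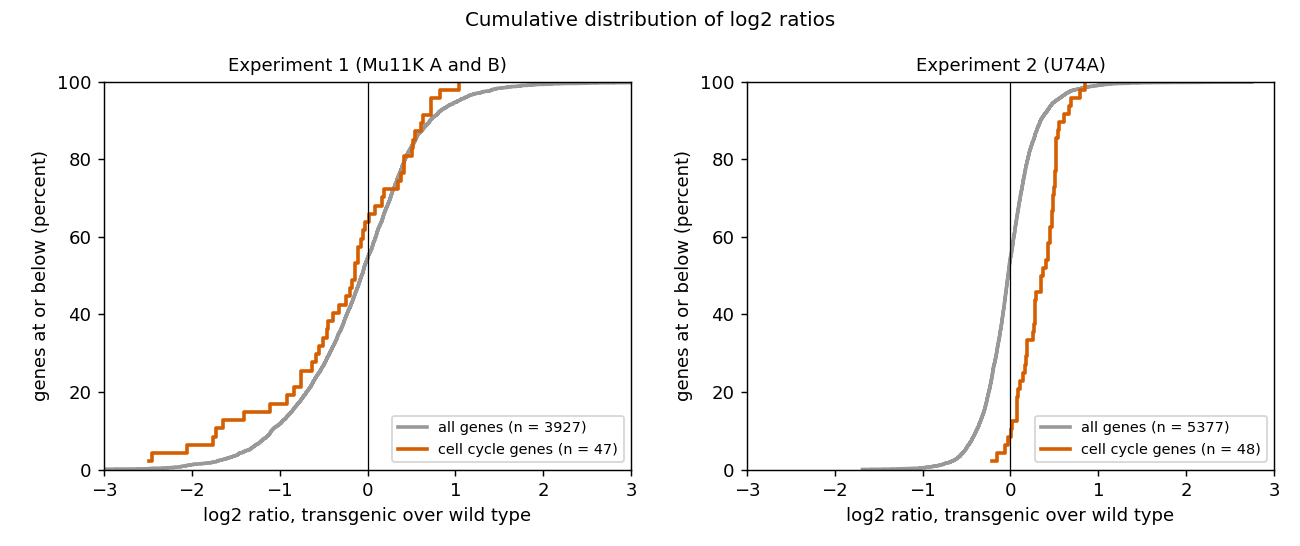
Cumulative share of genes (percent, vertical) by log2 ratio of transgenic over wild type (horizontal), for all genes above the floor (grey) and for the cell cycle and replication genes (orange), with experiment 1 on the left and experiment 2 on the right. In experiment 2 the orange curve lies to the right of the grey one, with medians of 0.36 and -0.03, and in experiment 1 it has a longer lower tail, with 17.0% of members against 11.7% of all genes at least 2-fold lower.

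Whether a gene's mean log2 ratio over both experiments differed from 0 was tested with limma over the 3237 genes measured in both, of which 44 were members. No member passed at an adjusted p of 0.05, where 0.154% of all genes did. At an unadjusted p under 0.05 there were 2 of the 44 members, Rb1 and Mki67, against 208 of the 3237 genes (6.43%). Both owed this to experiment 1, with log2 ratios of -2.06 and -0.06 for Rb1 and of -2.49 and 0.28 for Mki67. The fit weights both experiments alike, although the SD of the log2 ratios over all genes was 0.76 in experiment 1 and 0.33 in experiment 2. The lowest adjusted p was that of Rb1 (0.769, limma; mean log2 ratio -1.06 ± 0.44, moderated SE, n = 2 experiments). The moderated SE draws on the variance of all genes and is not the spread between the 2 ratios of Rb1. The direction over both experiments was mixed. Of the 44 members, 15 were higher in both (34.1%, against 23.9% of all genes), 3 were lower in both (6.82% against 30.4%), and 25 were lower in experiment 1 and higher in experiment 2 (56.8% against 22.7%). The 3 lower in both were Smc4, Cdkn1a and Rb1, and Rpa2 was higher in experiment 1 and lower in experiment 2. Across the 44 genes the log2 ratios of the experiments were unrelated, with a Pearson's r of -0.019 and a Spearman's rho of -0.071, as a description across genes that share their 4 samples and are not independent replicates. After median equalisation 21 were higher in both and 19 lower then higher.

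**Figure D2:**
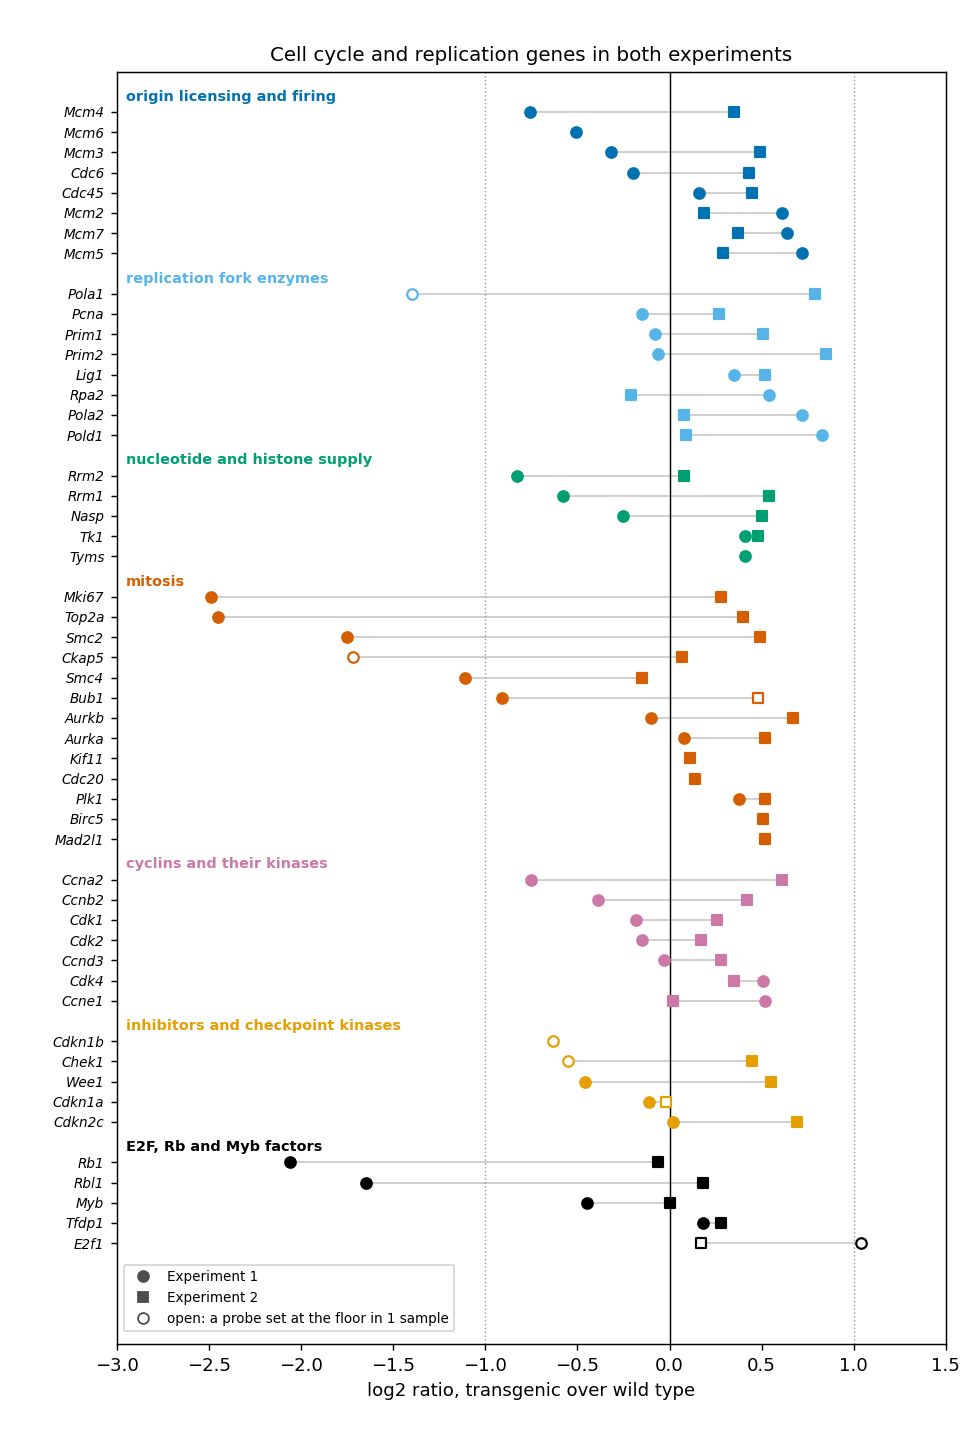
Log2 ratio of transgenic over wild type (horizontal) for each gene with a value, grouped by function, with experiment 1 as circles, experiment 2 as squares and a grey line joining them. Open symbols include a probe set at the floor in 1 sample, and dotted lines mark 2-fold. The squares lie in a narrow band, from -0.21 to 0.85, while the circles reach -2.49 among the mitotic genes.

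The genes of origin licensing and firing, which place and start the replicative helicase, were higher in 7 of 7 cases in experiment 2, with a median log2 ratio of 0.37, and in 4 of 8 in experiment 1, with a median of -0.02 that was 0.17 after quantile normalization and 0.16 after median equalisation. Mcm7, a helicase subunit, had intensities of 5144 in the transgenic and 3311 in the wild-type sample of experiment 1, and of 4204 and 3248 in experiment 2. Its transgenic sample was thus the higher in each pair, by 1.55-fold and 1.29-fold (limma adjusted p = 0.863). Mcm5, another subunit, had 2546 and 1546 in experiment 1 and 4497 and 3688 in experiment 2. Mcm2 had 2630.0 and 1724 in experiment 1 and 1788 (transgenic) and 1570 (wild type) in experiment 2. The pairs of these subunits differed in the same direction throughout, by 1.14-fold to 1.65-fold. The other subunits went apart in experiment 1. Mcm4 was there 1.70-fold lower, with 376.8 against 638.7, and Mcm3 1.25-fold lower, with 1211 against 1513. In experiment 2 both were higher, Mcm4 by 1.27-fold (1978 against 1555) and Mcm3 by 1.40-fold over its 2 probe sets. The Mcm6 probe sets of experiment 1 had log2 ratios of -0.04 and -0.97, with the brighter at 1594 in the transgenic and 1642 in the wild-type sample. The helicase is built from equal numbers of these 6 subunits, and their transcripts did not differ in a single direction in experiment 1. Cdc6, which loads the helicase, had log2 ratios of -0.20 and 0.43, and Cdc45, which activates it, of 0.16 and 0.45. The Cdc45 probe sets of experiment 1 differed in sign, at 1075 against 811.2 and 541.1 against 571.3, and that of experiment 2 had 1447 against 1057.

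Of the enzymes at the replication fork, 7 of 8 were higher in experiment 2 (median log2 ratio 0.39) and 4 of 8 in experiment 1 (median 0.15). The median of experiment 2 was 0.26 when probe sets below the floor were kept, and that of experiment 1 was 0.32 after median equalisation. Lig1, the ligase that joins Okazaki fragments, was higher in each pair, at 1502 against 1182 and 1392 against 969.8, or 1.27-fold and 1.44-fold. Pold1, the catalytic subunit of polymerase delta, was 1.77-fold higher in experiment 1, at 2090.3 against 1179, and 1.06-fold higher in experiment 2, at 1367 against 1315 and 113.5 against 104.4 in its 2 probe sets. The DNA polymerase alpha and primase complex, which lays down primers, differed among its subunits. Its catalytic subunit Pola1 was below the floor in the transgenic sample of experiment 1 against 264.3 in the wild type, at least 2.64-fold lower (a log2 ratio of -1.40, which was -0.40 with a floor of 200 and -2.23 with a floor of 50), and was 1.73-fold higher in experiment 2, at 1089 against 629.9. Its accessory subunit Pola2 was 1.65-fold higher in experiment 1, at 713.6 against 432.3, whereas its probe sets in experiment 2 differed in sign, at 1099.5 against 810.6 and 177.3 against 215.9. The primase subunit Prim2 had 299.4 and 311.1 in experiment 1 and 661.4 and 366.8 in experiment 2, where its 1.80-fold difference was the largest of any member. Prim1, the catalytic primase, behaved similarly, at log2 ratios of -0.08 and 0.51. The sliding clamp Pcna had 3852 and 4262 in experiment 1 and 5976 and 4960 in experiment 2, or log2 ratios of -0.15 and 0.27. Rpa2, a subunit of the single-strand binding protein, was the exception in experiment 2, where it was 1.15-fold lower after being 1.46-fold higher in experiment 1.

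Among the genes of nucleotide and histone supply, 4 of 4 were higher in experiment 2 (median log2 ratio 0.49) and 2 of 5 in experiment 1 (median -0.25). The median of experiment 2 was 0.25 when probe sets below the floor were kept, and that of experiment 1 was -0.07 after median equalisation. Tk1, the thymidine kinase of S phase, was higher in each pair, at 984.3 against 738.4 and 2566 against 1843, or 1.33-fold and 1.39-fold. Tyms, which makes thymidylate, was 1.33-fold higher in experiment 1, at 1470 against 1105. Ribonucleotide reductase differed from these. Its small subunit Rrm2 was read by 4 probe sets in experiment 1, all lower, from -0.58 to -1.21 in log2 ratio, and by 1 in experiment 2, at 4492 against 4254. Its large subunit Rrm1 had 882.0 and 1319.8 (transgenic and wild type) in experiment 1 and 4791 and 3304 in experiment 2, with log2 ratios of -0.58 and 0.54. Nasp, a histone chaperone, had log2 ratios of -0.25 and 0.50.

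The mitotic genes differed most between the experiments. In experiment 1, 7 of 9 were lower and 5 were at least 2-fold lower, with a median log2 ratio of -1.11, and remained between -1.20 and -0.93 under the alternative settings. In experiment 2, 12 of 13 were higher, with a median of 0.48. Mki67, the Ki-67 antigen of dividing cells, had 1444 in the transgenic and 8130.0 in the wild-type sample of experiment 1 and 2899 and 2390.4 in experiment 2, that is 5.63-fold lower and 1.21-fold higher. Top2a, the topoisomerase that untangles chromosomes, was read on both Mu11K arrays, at 431.8 against 2382 on A and 677.8 against 3663 on B, and at 3277 against 2481 in experiment 2. The arrays of experiment 1 thus gave nearly the same difference, at log2 ratios of -2.46 and -2.43, against 0.40 in experiment 2. The condensin subunits Smc2 and Smc4 were 3.38-fold and 2.15-fold lower in experiment 1, at 267.4 against 902.6 and 1739 against 3741. In experiment 2 Smc2 was 1.40-fold higher (2264 against 1615) and Smc4 1.11-fold lower (7026 against 7813), so they no longer went together. Ckap5, a microtubule polymerase, was lower in both probe sets of experiment 1, at 162.4 against 904.6 in the brighter and below the floor against 196.1 in the other, and was 1800.2 against 1711 in experiment 2.

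The mitotic kinases and checkpoint genes differed by less than 2-fold throughout. Plk1, a kinase of mitotic entry and exit, was higher in each pair, at 2057 against 1578 in experiment 1 and, over 3 probe sets that were all higher, by 1.43-fold in experiment 2, with the brightest at 2400.0 against 1779, the next at 1247 against 746.2 and the last at 1128 against 866.1. Aurka, the spindle pole kinase, had 1249.8 against 1157 on Mu11K A, 1671 against 1611 on Mu11K B and 1403 against 976.6 in experiment 2, or log2 ratios of 0.11, 0.05 and 0.52. Aurkb, the kinase of the chromosomal passenger complex, had 1042 and 1120 (transgenic and wild type) in experiment 1 and 1662 and 1044 in experiment 2, where it was 1.59-fold higher. Aurkb thus had the largest difference among the mitotic genes of experiment 2. Birc5, its partner in that complex, was 1.43-fold higher there (2814 against 1974). Mad2l1, of the spindle checkpoint, was 1.44-fold higher (4033 against 2807), while Cdc20, the activator it restrains, and the spindle motor Kif11 differed by 1.10-fold and 1.08-fold. The checkpoint kinase Bub1 was 1.88-fold lower in experiment 1 at low levels (187.3 against 352.2) and higher in experiment 2, at 927.8 against 639.0 in its brightest probe set.

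**Figure D3:**
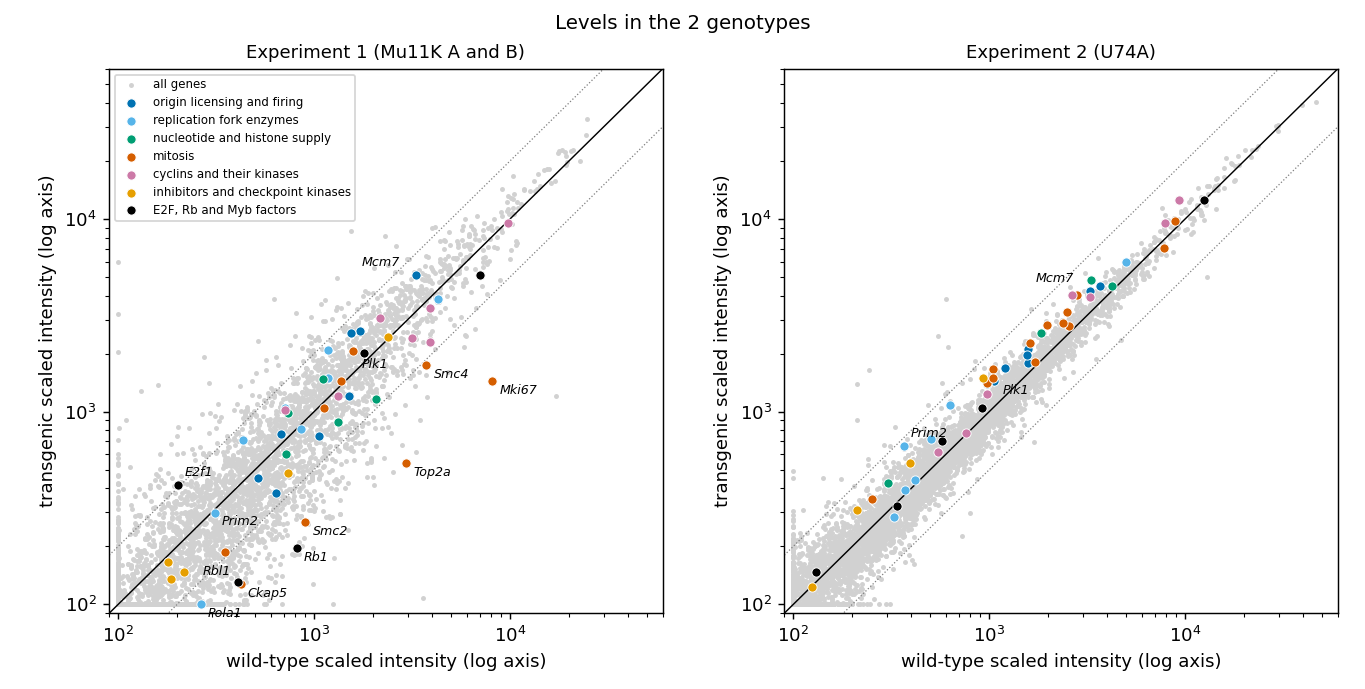
Scaled intensity in the transgenic (vertical) against the wild-type sample (horizontal) on log axes, per gene, for all genes (grey) and the cell cycle genes coloured by function. The solid line marks equal levels and the dotted lines 2-fold. In experiment 1 Mki67, Top2a, Smc2, Smc4, Ckap5, Rb1, Rbl1 and Pola1 lie beyond the lower 2-fold line and E2f1 beyond the upper, whereas no member does in experiment 2.

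The cyclins and their kinases drive these transitions. In experiment 2, 7 of 7 were higher (median log2 ratio 0.28), and in experiment 1, 2 of 7 (median -0.15, which was 0.03 after median equalisation). Ccna2, the cyclin of S phase and G2, had 2308 and 3887 in the transgenic and wild-type samples of experiment 1 and 4034 and 2647 in experiment 2, or 1.68-fold lower and 1.52-fold higher. Ccnb2, a mitotic cyclin, had 2414 and 3159 in experiment 1 and 12462 and 9283 in experiment 2. Their kinase Cdk1 took the same turn with smaller differences, at 3464 against 3923 and 3912 against 3271. Of the 7 genes, 5 were lower and then higher, and Cdk4 and Ccne1 were the exceptions. Cdk4, the kinase partner of the D cyclins, was higher in each pair, by 1.42-fold in experiment 1 (3077 against 2166) and 1.27-fold in experiment 2, with probe sets at 2822 against 2129 and 544.5 against 447.1. Ccne1, cyclin E1, was 1.43-fold higher in experiment 1 (1021 against 714.3) and 1.01-fold in experiment 2 (771.1 against 762.9). Cyclin D3 (Ccnd3), the D cyclin on which thymocyte expansion depends, had 9521 and 7860.3 in experiment 2, a 1.21-fold difference, and probe sets of opposite sign in experiment 1, at 6947 against 7631 and 12954 against 12347. Cdk2, the partner of cyclins E and A, had 1200.2 and 1330.3 in experiment 1, and its probe sets of experiment 2 had 2006 against 2003 and 189.0 against 149.1.

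The inhibitors and checkpoint kinases restrain the cycle. Of these, 1 of 5 was higher in experiment 1 (median log2 ratio -0.46, which was -0.11 after quantile normalization) and 3 of 4 in experiment 2 (median 0.50). Cdkn2c, which inhibits Cdk4 and Cdk6, had 2430 and 2395 (transgenic and wild type) in experiment 1 and 1502 and 928.7 in experiment 2, a 1.62-fold difference that was among the largest of the members there. Its sign in experiment 2 was that of the DNA synthesis genes. Wee1, which inhibits Cdk1, was higher in experiment 2 (307.9 against 210.7) and lower in experiment 1 (135.9 against 186.7), in both cases at low levels. Chek1, the replication checkpoint kinase, was 1.37-fold higher in experiment 2 (541.3 against 394.9) and lower in its 2 probe sets of experiment 1. These were at low levels, at 218.8 against 274.8 and below the floor against 170.1. Cdkn1b, the inhibitor p27, had a log2 ratio of -0.63 in experiment 1, from a probe set at 2283 against 2561 and another below the floor against 212.5, and the ratio was -0.17 from the brighter alone. Cdkn1a, the target of p53, lay close to the floor, at 101.8 against 106.5 and 272.0 against 301.6 in experiment 1. Its probe sets of experiment 2 differed in sign, at 143.9 against 156.7 and 105.4 against a wild-type value under the floor.

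The E2F, Rb and Myb factors, which set the transcription of the other groups, were higher in 2 of 5 cases in experiment 1 (median log2 ratio -0.45) and in 4 of 5 in experiment 2 (median 0.17, which was 0.00 by the brightest probe set alone). Rb1, the retinoblastoma repressor, was 4.16-fold lower in experiment 1, at 196.1 against 815.0, and 1.04-fold lower in experiment 2, at 550.6 against 596.7 and 189.2 against 190.1 in its 2 probe sets. Its relative Rbl1 (p107) was 3.13-fold lower in experiment 1, at 130.9 against 410.3, and 1.14-fold higher in experiment 2, at 1042 against 917.3. E2f1, the activator that Rb restrains, was higher in experiment 1, at 622.0 against 405.1 in 1 probe set and 275.8 against a wild-type value under the floor in the other. The mean log2 ratio of both, 1.04, was 0.62 (1.54-fold) from the brighter alone and 0.54 with a floor of 200, so E2f1 was then not 2-fold apart. In experiment 2 its probe sets had 176.3 against 170.4 and 122.3 against a wild-type value under the floor. Tfdp1, the dimer partner of E2F, had 2026 and 1786 in experiment 1, and its 3 probe sets of experiment 2 had 1613 against 1631, 1182 against 871.6 and 180.7 against 135.2. Myb, a factor needed for thymocyte development, had 5136 and 7006 in experiment 1 and 12472 and 12444 in experiment 2.

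The 120 other genes of the pathway that were listed beside the members differed between the experiments most clearly for mitosis. Of 98 with a probe set, 90 were above the floor in experiment 2 and 70 in experiment 1. Of the 65 measured in both, 0 passed limma after adjustment, where 0.154% of all 3237 genes did. At an unadjusted p under 0.05 there were 3 of the 65, where 6.43% of all genes were. Mitotic genes outside the members were higher in 30 of 31 cases in experiment 2 (median log2 ratio 0.30) and in 6 of 28 in experiment 1 (median -0.50, with 8 at least 2-fold lower). Of 25 of them measured in both, 19 were lower in experiment 1 and higher in experiment 2, and 5, among them the kinesin gene Kifc1 (0.53 and 0.25) and the Cdk-binding protein gene Cks1b (0.85 and 0.15), were higher in both. Other replication genes were higher in 26 of 37 cases in experiment 2 (median 0.17) and 11 of 23 in experiment 1 (median -0.01). Higher in both were Fen1, the flap endonuclease, at 0.55 and 0.33, and the licensing factor gene Cdt1, at 0.81 and 0.14. Top1, a topoisomerase that relaxes supercoiled DNA, was at -2.07 and -0.06. Other genes of cyclin, CDK and E2F control were higher in 12 of 22 cases in experiment 2 (median 0.04) and 6 of 19 in experiment 1 (median -0.17). Of 18 measured in both, 4 were higher in both, among them Cdkn3 (0.35 and 0.45) and Mybl2, a Myb-family factor of the mitotic wave (1.86 and 0.18). There were 6 lower in both, among them Cdk5 (-0.13 and -0.54) and Mdm2, the p53 ligase (-1.14 and -0.06).

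Probe sets of the same member mostly gave the same direction. Of 11 members with several probe sets above the floor in experiment 1, 2 had probe sets of opposite sign, Ccnd3 and Cdc45, and of 11 in experiment 2, 3 did, Cdkn1a, Pola2 and Tfdp1. Large differences in experiment 1 were read on both of its arrays, where 7 of 37 members on Mu11K A and 3 of 15 on Mu11K B were at least 2-fold lower. Over both arrays 11.7% of all genes were, a share not counted for each array. The 3 on Mu11K B were Mki67, Top2a and Cdkn1b. Cdkn1b was among them by a probe set below the floor in the transgenic sample, against 212.5, and its Mu11K A probe set had a log2 ratio of -0.17. The median log2 ratio of the members was -0.10 on A and -0.32 on B, against -0.06 and -0.10 over all genes of those arrays. For 9 members, all with absolute log2 ratios of 0.20 or less in experiment 1, the sign there changed under at least 1 alternative setting. These were Aurkb, Ccnd3, Cdc6, Cdk2, Cdkn1a, Cdkn2c, Pcna, Prim1 and Prim2.

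In experiment 1 longer genes had lower log2 ratios, among the members and over all genes. Across the 47 members, Spearman's rho between the log2 ratio and the genomic length in RefSeq was -0.351 in experiment 1, against -0.297 over 3922 genes with a length. In experiment 2 rho was -0.030 across 48 members and -0.058 across 5371 genes. These are descriptions across genes of the same samples. Of the 24 members longer than 17.6 kb, the median over the members, 18 were lower in experiment 1 and 8 were at least 2-fold lower, with a median log2 ratio of -0.48. Of the 23 at or below that length, 12 were lower and 0 were 2-fold lower, with a median of -0.08. In experiment 2 the longer and shorter members had medians of 0.29 and 0.37. Arrays also carry control probe sets at the 3′ and 5′ ends of a transcript. The 3′ over 5′ ratio for beta-actin on Mu11K B was 1.08 in the transgenic and 1.32 in the wild-type sample, and for Gapdh it was 1.18 and 0.870, so that the controls differed in opposite directions. For Mu11K A the ratios of the transgenic sample were 1.09 and 1.00, and wild-type controls were not used here, so this array of experiment 1 gives no comparison of them. On U74A the ratios were 1.36 and 1.58 for beta-actin and 0.766 and 0.792 for Gapdh. The part of gene length or RNA quality in the results was not tested.

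**Figure D4:**
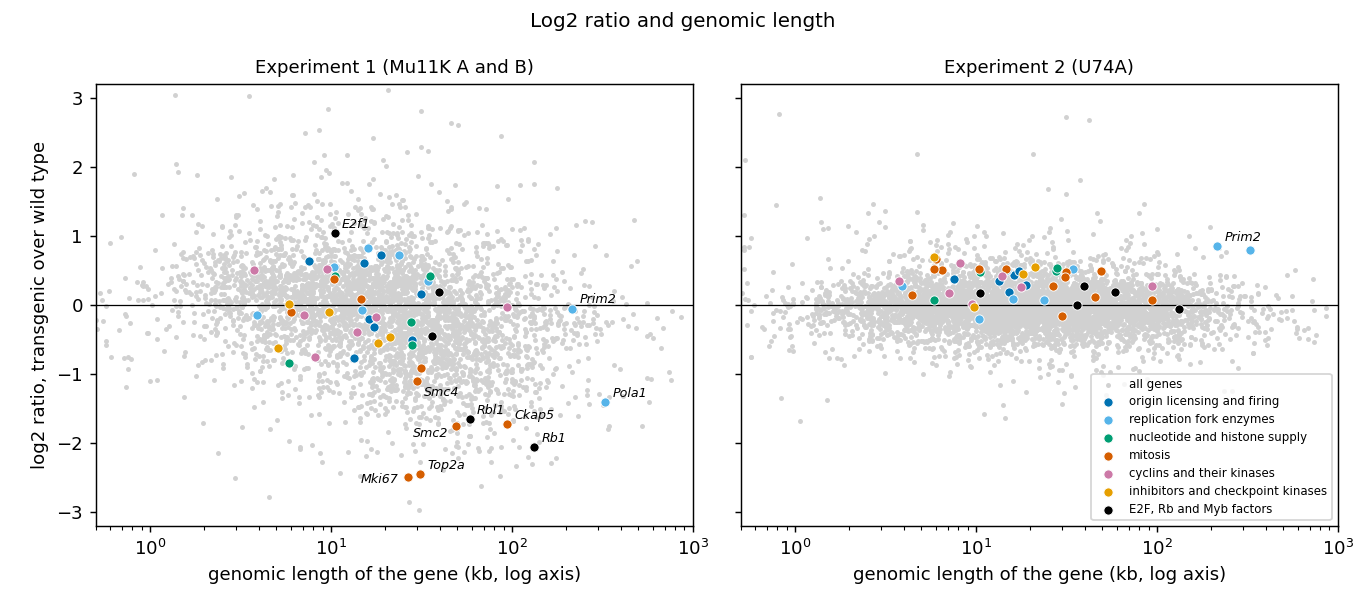
Log2 ratio of transgenic over wild type (vertical) against the genomic length of the gene in kilobases (horizontal, log axis) for all genes (grey, values beyond 3.2 in either direction not drawn) and the cell cycle genes coloured by function. In experiment 1 the members that were at least 2-fold lower lie to the right, above 17.6 kb, and in experiment 2 there is no such slope, with a rho of -0.030.

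Members with a CCAAT box in their promoter window had a median log2 ratio of -0.21 in experiment 1, with 8 of 26 higher, and those without it of 0.38, with 9 of 14 higher. In experiment 2 the medians were 0.39 and 0.28. For members with and without a CHR the medians were -0.25 and -0.08 in experiment 1 and 0.40 and 0.32 in experiment 2, and for E2F -0.18 and -0.09, and 0.37 and 0.31. No difference between these groups was tested.

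Markers of other cells or stages also differed between the genotypes, and their part in the cell cycle values was not tested. The counts cover genes above the floor. The sums cover all probe sets of a list, without the floor and leaving out negative intensities, so they include genes that the counts do not. Markers of the double-negative stage, at which thymocytes divide, were higher in 4 of 6 cases in experiment 1 and 5 of 6 in experiment 2, with summed intensities of 15611 against 3353 and 7504 against 5180 (transgenic against wild type). These sums were carried by Dtx1, Notch1, Notch3 and Ptcra. Il2ra and Cd44 were not above the floor in either experiment, nor were Hes1 and Il7r in experiment 1, nor Kit and Cd34 in experiment 2. In experiment 1 Kit and Cd34 were lower (log2 ratios of -0.21 and -0.74), and in experiment 2 Hes1 was lower (-0.32). Il7r, counted as higher in experiment 2, was at 102.6 against a wild-type value under the floor. Double-positive markers were higher in 1 of 8 and 3 of 9 cases, with sums of 51167 against 60227 and 80107 against 87085. Markers of mature single-positive cells were higher in 5 of 5 and 4 of 4, with sums of 17145 against 5648 and 13392 against 8806. S1pr1 was not above the floor in either experiment, nor was Il7r in experiment 1, nor Ccr7 and Klf2 in experiment 2. The 4 counted in experiment 2 were thus H2-D1, H2-K1, Socs3 and Il7r, with Il7r at 102.6 against a wild-type value under the floor. B cell markers were higher in 5 of 6 and 6 of 9, with sums of 31594 against 19068 and 18860 against 16554. Cd22 was not above the floor in either experiment, nor were Cd79a and Pax5 in experiment 1. The 3 that were 2-fold higher in experiment 1 were Cd74, H2-Aa and H2-Ab1 (log2 ratios of 1.23, 1.34 and 1.59). Ms4a1 was lower there (-0.14), and Cd79b, Pax5 and Blnk were lower in experiment 2 (-0.23, -0.14 and -0.02). Myeloid markers were higher in 3 of 7 and 6 of 8, at 3790 against 3846 and 2137 against 1422. Adgre1 and S100a9 were not above the floor in either experiment, nor was Csf1r in experiment 1, nor Fcer1g and Itgam in experiment 2. Erythroid markers were higher in 3 of 5 and 2 of 4, at 3391 against 1150 and 2347 against 885. Alas2 and Epor were not above the floor in either experiment, nor was Klf1 in experiment 2. The globin genes Hba-a1 (log2 ratios of 1.90 and 2.76) and Hbb-b2 (3.04 and 1.54) were higher in both. Gata1 (-0.52 and -0.07) and Car2 (-0.98 and -1.64) were lower in both, with transgenic values under the floor, and Klf1 was at 0.06 in experiment 1. Stromal markers were higher in 1 of 2 and 0 of 2, at 328 against 440 and 1148 against 1524. These sums include Col3a1, Epcam, Krt8, Krt18 and Sparc, which were not above the floor in either experiment. The gamma-delta and NK list, which holds the transgene, was higher in 4 of 4 and 4 of 5, at 16318 against 2164 and 6164 against 1565. These counts and sums include Sox13 itself, at 5951 and 3832 in the transgenic samples. Il2rb and Klrb1c were not above the floor in experiment 1, nor Klrd1 and Ncr1 in experiment 2. The ratios of Trgv1 and Blk involved floored values in both experiments, and Il2rb was lower in experiment 2 (log2 ratio -0.26).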

How the data were processed

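The deposited values are linear probe set intensities from Affymetrix arrays; per the labels and the series text the authors used Microarray Analysis Software versions 4 and 5, and the submitters' processing notes name MAS5 for U74A. The scaling target is not given in the sources used here. Negative intensities made up 17.3% to 29.2% of the probe sets of a Mu11K array and 0 on U74A. AFFX controls and 21 Mu11K A probe sets with no wild-type value were left out. Intensities were multiplied so that the 2% trimmed mean of each array equalled 500, floored at 100 and converted to log2. Symbols came from the platform annotation, checked against RefSeq (GRCm38.p6). Within an experiment, a gene's log2 ratio is the average over those of its probe sets that exceeded the floor in at least 1 sample. The ratio pairs the samples by experiment. Pooled thymocytes were hybridised, so p-values do not measure spread between mice.

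The limma test (version 3.58.1, R 4.3.3; intercept against 0, two-sided, Benjamini-Hochberg, threshold 0.05) covered 3237 genes, with 12.1 prior degrees of freedom that outweigh a gene's own 2 ratios. The fit was tested on simulated data with normal noise and equal changes in both experiments. There it recovered 38.3% of genes changed 2-fold and 99.0% of those changed 4-fold. The simulated noise had the same spread for all genes of an experiment, which real genes need not have. The shares recovered in the real data, where 5 genes passed, may therefore be lower. Differences under 2-fold were not simulated. Within an experiment, with 1 sample per genotype, no test was run. The members, lists and motifs were chosen with earlier results of these data known. Genes were named by function group, with intensities of both experiments for members agreeing in sign, 2-fold apart or with probe sets of opposite sign. Of the other pathway genes, up to 3 per list and direction that agreed in sign, with the larger differences, were nameable. Alternatives were floors of 50 and 200, quantile and median scaling, the brightest probe set, a stricter and no filter, an unpaired fit, each experiment and each Mu11K array alone.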

Additional observations from a re-analysis of the deposited data

Results flagged for a closer look

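The median log2 ratio of the cell cycle genes had opposite signs in the experiments, at -0.15 over 47 genes in experiment 1 and 0.36 over 48 genes in experiment 2. With 1 sample per genotype in each experiment, the difference between them was not tested.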

How the results depend on the processing

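No member passed limma under any of the 7 other paired settings or in the unpaired fit with no replicate block (0 members), with the lowest adjusted p of a member between 0.371 (median scaling) and 0.999 (unpaired). Over all genes the number passing was 5, also with a floor of 200, against 0 with a floor of 50, without a filter and unpaired, 1 with the brightest probe set, 2 above the floor in both samples, 15 after quantile normalization and 28 after median scaling. The median log2 ratio of the members in experiment 2 lay between 0.27 (no filter) and 0.40 (brightest probe set). In experiment 1 it was -0.15, -0.13 after quantile normalization and 0.03 after median scaling, where the median of all genes moved from -0.07 to 0.06 and 0.09. On Mu11K B alone, a choice made after seeing the data, it was -0.32, with 3 members at least 2-fold apart against 9 on both arrays, since that array measured 15 members. That number was 7 with a floor of 200 and with probe sets above the floor in both samples, and 8 with the brightest probe set, and in these settings no member was 2-fold higher. The mean of the medians of the experiments was 0.11, and leaving out an experiment gave -0.15 to 0.36. The sign of 38 of 47 members in experiment 1 and 46 of 48 in experiment 2 was kept under every setting. Values at or near the floor limit several ratios of experiment 1, which ranged over the settings from -2.23 to -0.40 for Pola1, -2.48 to -1.56 for Ckap5, 0.54 to 1.22 for E2f1 and -0.80 to -0.13 for Cdkn1b.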
